A study of Mus musculus with 10 samples.

Results

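Open chromatin of monocyte-dendritic cell progenitors (MDP) lacking interferon regulatory factor 8 (IRF8) was compared with that of wild-type (WT) MDP. The comparison used 4 of the 10 libraries of the series, 2 labelled IRF8KO MDP and 2 labelled WT MDP, each with its own list of ATAC-seq peaks. ATAC-seq uses a transposase that inserts sequencing adapters into accessible DNA, so a peak marks a stretch of open chromatin. Peaks of the 4 MDP lists on chromosomes 1 to 19 and X that overlapped by at least 1 bp were merged into 79656 regions, of the 114366 obtained when all 10 lists were merged. A region was called lost when both WT libraries and neither IRF8KO library listed a peak there, and gained when both IRF8KO libraries and neither WT library did. By this rule 10648 regions were lost (13.4% of the merged regions), 3121 were gained (3.92%), 37993 were listed in all 4 libraries, and 27894 showed other patterns.

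All 4 libraries were made from bone marrow cells of C57BL/6 mice. Magnetic selection (MACS) came first and was followed by fluorescence-activated sorting of cells that were Lin- Sca-1- CD117+ IL-7R- CD115+ in both genotypes. The labels describe the IRF8KO cells as IRF8-deficient and do not name the allele, the ages or the animals behind a library. The other 6 libraries, a pair each of WT LT-HSC (long-term hematopoietic stem cells), lymphoid-primed multipotent progenitors (LMPP) and common dendritic cell progenitors (CDP), were used only to ask where MDP regions were listed elsewhere. The titles of the LMPP libraries were followed here, although their cell type field names short-term hematopoietic stem cells instead. In a bulk library, a region open in fewer cells and a region less open in each cell cannot be told apart.

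IRF8 is a transcription factor that myeloid progenitors need to make dendritic cells and monocytes, and it belongs to a family named for the control of interferon genes. It binds DNA weakly by itself and acts with partners, among them the ETS factor PU.1 (encoded by Spi1), with which it binds joint ETS-IRF sites. In the scheme of myeloid development, the LMPP stage precedes the MDP and the CDP follows it, and mice without IRF8 are known to accumulate neutrophils at the expense of monocytes and dendritic cells.

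Few changed regions covered a gene start: 2.20% of lost and 0.994% of gained regions, against 24.1% of regions of all 4 libraries. The promoters printed here therefore do not stand for the changed DNA as a whole. They belong to the 4 lost and the 4 gained regions highest in their lists that covered a gene start. These 300-base promoters (250 bases before to 50 bases after the start) were taken from RefSeq, build GRCm38.p6. The strand of the gene is printed, and capitals mark letters matching 1 of 7 motifs searched on both strands. Those motifs were GGAANNGAAA for the ETS-IRF composite, GAAANNGAAA for a pair of IRF sites, GAGGAAGT for PU.1, TTGCNNAA for C/EBP factors, AGATAA for the GATA family, TGTGGT for RUNX factors and TGANTCA for AP-1. The lost promoters belonged to Adam19 (a metalloprotease; chr11:46127654-46127953, plus strand), Pdcd1 (the inhibitory receptor PD-1; chr1:94052504-94052803, minus strand), Kmo (kynurenine 3-monooxygenase; chr1:175631943-175632242, plus strand) and Tlr11 (a receptor for microbial profilin; chr14:50357664-50357963, plus strand). The Adam19 start printed here lies inside the gene, which begins at chr11:46054502. The capitals mark RUNX letters in Adam19, the ETS-IRF composite read on the opposite strand in Pdcd1, PU.1 letters in Kmo, and PU.1 letters followed by the IRF pair in Tlr11.
Adam19: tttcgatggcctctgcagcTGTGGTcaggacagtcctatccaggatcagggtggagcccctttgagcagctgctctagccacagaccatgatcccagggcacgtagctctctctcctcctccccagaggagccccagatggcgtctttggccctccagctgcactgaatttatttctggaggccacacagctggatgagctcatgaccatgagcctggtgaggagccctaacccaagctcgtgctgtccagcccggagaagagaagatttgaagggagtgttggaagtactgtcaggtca
Pdcd1: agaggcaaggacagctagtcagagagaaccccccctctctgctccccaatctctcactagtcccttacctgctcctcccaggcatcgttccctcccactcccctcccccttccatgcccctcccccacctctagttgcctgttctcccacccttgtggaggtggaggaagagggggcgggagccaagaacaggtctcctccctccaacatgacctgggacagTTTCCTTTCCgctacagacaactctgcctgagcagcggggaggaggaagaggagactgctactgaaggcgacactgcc
Kmo: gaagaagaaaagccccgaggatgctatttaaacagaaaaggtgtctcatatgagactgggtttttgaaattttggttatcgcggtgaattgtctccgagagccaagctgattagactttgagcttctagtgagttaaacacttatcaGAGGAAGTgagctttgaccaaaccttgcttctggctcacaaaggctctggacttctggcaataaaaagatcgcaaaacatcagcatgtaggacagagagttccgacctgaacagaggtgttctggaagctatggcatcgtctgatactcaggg
Tlr11: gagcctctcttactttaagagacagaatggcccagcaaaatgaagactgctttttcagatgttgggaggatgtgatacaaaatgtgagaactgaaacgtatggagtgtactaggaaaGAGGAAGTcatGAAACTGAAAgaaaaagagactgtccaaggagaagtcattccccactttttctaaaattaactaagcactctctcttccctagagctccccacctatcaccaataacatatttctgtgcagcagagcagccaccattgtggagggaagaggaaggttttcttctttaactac

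The gained promoters belonged to Ednra (endothelin receptor A; chr8:77724403-77724702, minus strand), Cmah (an enzyme of sialic acid modification; chr13:24414872-24415171, plus strand), Pparg (a nuclear receptor of lipid metabolism; chr6:115421816-115422115, plus strand) and Nlrp12 (an intracellular sensor protein of myeloid cells; chr7:3249691-3249990, minus strand). None of the 4 held the ETS-IRF or IRF-pair letters, which were in 2.55% and 3.38% of all promoters. With shares this low, 4 promoters allow no contrast with the lost set. The capitals mark GATA letters in Cmah and C/EBP letters in Pparg, at 2 places, and in Nlrp12, at 1 place. The Ednra promoter matched no motif. The Pparg start printed here lies inside the gene, which begins at chr6:115360879.
Ednra: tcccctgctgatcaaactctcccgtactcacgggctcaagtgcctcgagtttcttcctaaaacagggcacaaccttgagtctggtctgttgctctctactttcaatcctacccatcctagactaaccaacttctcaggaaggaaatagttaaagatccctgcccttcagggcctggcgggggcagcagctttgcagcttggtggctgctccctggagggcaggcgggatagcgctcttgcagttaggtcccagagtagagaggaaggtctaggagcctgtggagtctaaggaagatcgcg
Cmah: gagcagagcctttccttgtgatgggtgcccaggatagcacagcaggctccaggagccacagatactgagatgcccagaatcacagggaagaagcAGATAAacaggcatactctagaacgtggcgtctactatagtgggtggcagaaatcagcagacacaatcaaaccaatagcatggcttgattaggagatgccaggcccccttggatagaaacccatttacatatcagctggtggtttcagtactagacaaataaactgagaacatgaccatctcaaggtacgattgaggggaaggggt
Pparg: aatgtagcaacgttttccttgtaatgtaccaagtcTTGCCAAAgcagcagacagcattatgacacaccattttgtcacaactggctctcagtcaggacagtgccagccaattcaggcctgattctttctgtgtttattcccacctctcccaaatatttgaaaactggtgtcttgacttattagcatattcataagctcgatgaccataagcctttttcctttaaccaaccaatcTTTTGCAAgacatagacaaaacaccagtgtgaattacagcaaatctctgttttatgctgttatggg
Nlrp12: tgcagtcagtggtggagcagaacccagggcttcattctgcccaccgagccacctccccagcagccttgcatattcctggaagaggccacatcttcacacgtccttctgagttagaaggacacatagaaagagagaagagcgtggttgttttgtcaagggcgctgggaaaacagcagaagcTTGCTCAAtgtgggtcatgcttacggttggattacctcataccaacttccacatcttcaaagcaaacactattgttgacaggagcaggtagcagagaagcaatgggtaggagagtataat

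The IRF8KO lists were shorter than the WT lists. They held 50728 and 54277 peaks in IRF8KO replicates 1 and 2, against 62130 and 64515 in WT replicates 1 and 2. The share of tags (aligned reads) inside peaks was 43.7% and 43.9% in the IRF8KO libraries, against 51.3% and 53.7% in the WT libraries. Both measures were lower in each IRF8KO library than in either WT library. Means were 52503 ± 2510 peaks in IRF8KO and 63323 ± 1686 in WT, and 43.8 ± 0.156% and 52.5 ± 1.76% of tags (SD, n = 2 each). The two-sided exact permutation test gave p = 0.333 for each, the smallest value that 2 libraries against 2 allow. Total tags were 4790046 and 5313729 in IRF8KO libraries, against 5394861 and 5328234 in WT libraries, and the part of depth in the differences was not tested. This p-value arises whenever 2 libraries lie apart from the other 2, so it does not measure the spread between libraries. No label ties an MDP library to an animal.

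The labelled cell type was checked against markers. Each of 6 MDP marker genes had at least 1 region in every library, with 46 and 52 regions in all in the IRF8KO libraries, against 63 and 62 in the WT libraries. Regions at the 4 dendritic cell markers numbered 14 and 15 in IRF8KO, against 24 and 24 in WT, and regions at the 4 stem cell markers 20 and 19, against 38 and 36. Regions at the 5 granulocyte progenitor markers numbered 14 and 14 in IRF8KO, against 18 and 16 in WT, and regions at the 3 monocyte markers 18 and 20, against 24 and 22. Erythroid and T cell markers, at 4 genes each, had 2 to 5 regions in every library. B cell markers had regions at 2 of 4 genes in each IRF8KO library, 9 and 11 in number, against 3 of 4 genes and 9 and 9 regions in the WT libraries. Mast cell and basophil markers had 7 and 7 regions in IRF8KO, against 10 and 9 in WT. The part of a changed cell mixture within the sorted gate in the results was not tested.

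Loss exceeded gain by a ratio of 3.41. Between single libraries, 6920 to 9888 regions were listed only in the IRF8KO library of a pair and 17882 to 20811 only in the WT library, over the 4 IRF8KO-WT pairs. Between replicates, the one-sided counts were 5402 and 9208 in IRF8KO and 7202 and 9293 in WT. The WT-only counts of all 4 pairs thus lay above every count between replicates, whereas the IRF8KO-only counts overlapped them. The call needs agreement of both replicates on each side: 3440 and 2054 regions of both WT libraries were also listed in 1 IRF8KO library (replicate 2 and replicate 1), and 1840 and 1181 regions of both IRF8KO libraries were also listed in 1 WT library (replicate 2 and replicate 1). Without WT replicate 1 the lost count was 16411, and the gained count was 6915, 5349 or 4981 without IRF8KO replicate 1, IRF8KO replicate 2 or WT replicate 2.

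**Figure D1:**
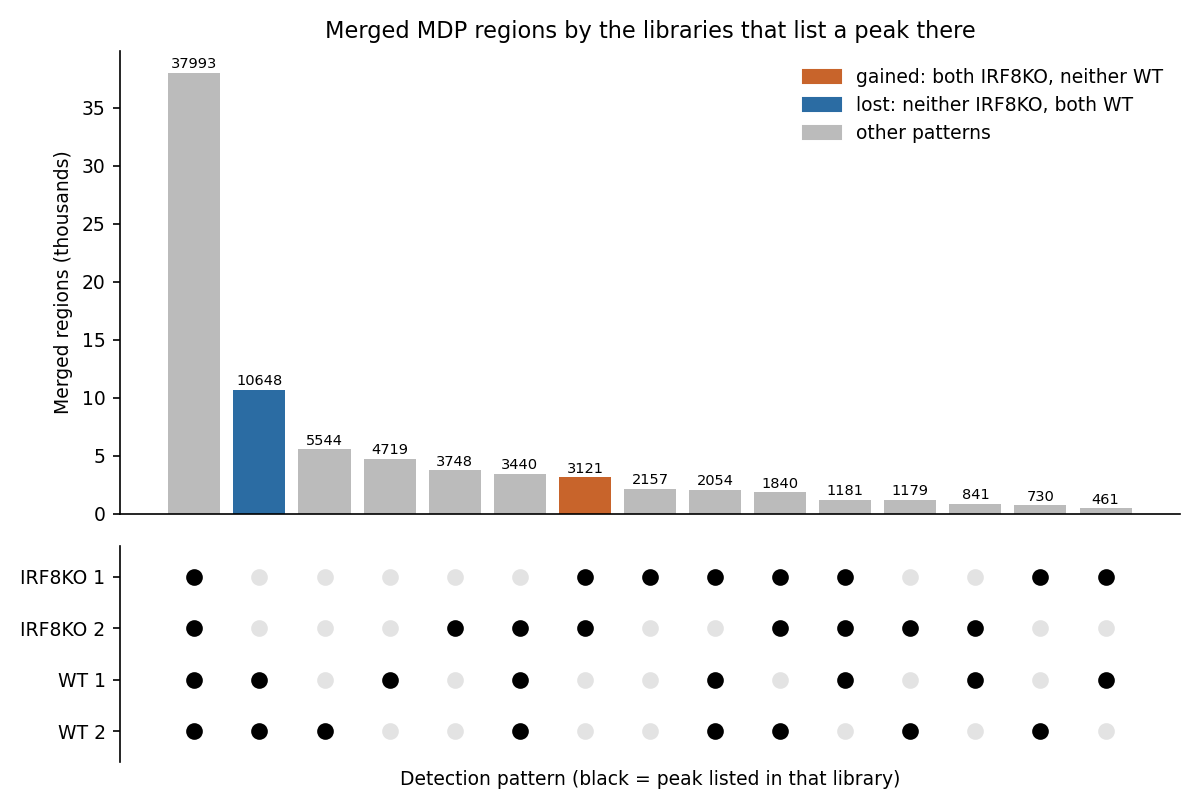
Number of merged MDP regions (y axis, in units of 1000) for each of the 15 detection patterns, with black dots below marking the libraries that list a peak. The largest pattern is detection in all 4 libraries (37993 regions), followed by the lost pattern (10648), while the gained pattern holds 3121 regions.

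The excess of losses was smaller with lists of equal length. When every list was cut from the top to 50711 peaks, the length of the shortest, 6702 of 68791 regions were lost (9.74%) and 5074 were gained (7.38%), and the ratio of lost to gained fell to 1.32. Of the lost regions at equal length, 94.9% overlapped a region lost with the full lists, and these amounted to 59.7% of that set. Of the gained regions at equal length, 55.0% overlapped a region gained with the full lists, covering 89.4% of it. The other 2285 regions gained at equal length overlapped none of that set.

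Changed regions stood low in the lists. The deposited score was the same in every row, so row position, given here as a percentage from the top (0%) to the bottom (100%) of a list, was the only rank. Rows higher up held wider peaks (Spearman correlations of row number and width of -0.813 to -0.842 across peaks within each MDP list), and row order is taken here as the authors' ranking. Stretches of a list also ran in genome order, such as separate Irf8 regions at 92.884%, 92.886%, 92.888% and 92.889% in WT replicate 1. Such runs look like ties, and cuts of the lists can divide them by chromosome. Among regions of both IRF8KO libraries, the share gained was 0% in the top 10% of the lists and 30.9% in the bottom 10%. Among regions of both WT libraries, the share lost was 0.453% in the top 10% and 51.8% in the bottom 10%. Median row positions of gained regions were 76.1% and 72.4% in the IRF8KO libraries, and those of lost regions were 66.7% and 66.0% in the WT libraries. Lost regions nevertheless included 2577 from the top 50% of the WT lists, against 316 gained regions from the top 50% of the IRF8KO lists. Merged regions had median widths of 634 bp for lost, 605 bp for gained and 1042 bp for regions of all 4 libraries. Regions of all 4 join the peaks of more lists, which widens them, so these widths are not a like comparison. Within them, the peaks of a single library covered a median of 659 and 767 bp in IRF8KO, against 819 and 774 bp in WT.

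**Figure D2:**
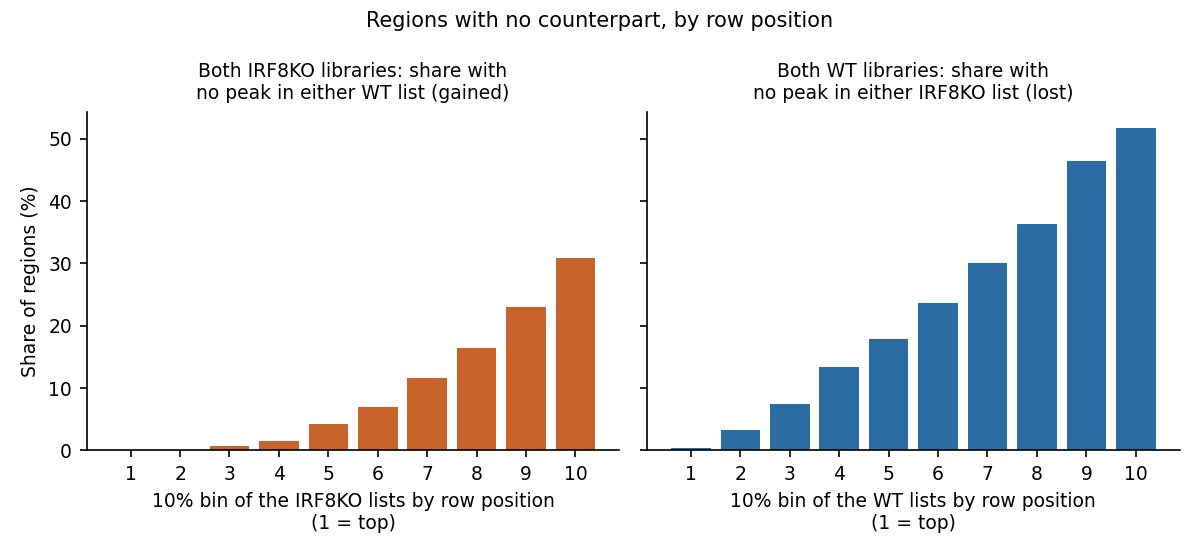
Share (%) of regions listed in both libraries of 1 genotype that had no peak in either library of the other, in bins of 10% of the lists (x axis, 1 = top). Left, regions of both IRF8KO libraries (gained), from 0% to 30.9%; right, regions of both WT libraries (lost), from 0.453% to 51.8%.

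The regions listed in all 4 libraries were also reordered. Row positions of these 37993 regions correlated across regions with Spearman coefficients of 0.925 between the IRF8KO replicates, 0.941 between the WT replicates, and 0.803 to 0.815 between genotypes. In 2372 of them (6.24%) both IRF8KO row positions lay more than 20 points nearer the bottom than either WT position, and in 895 (2.36%) more than 20 points nearer the top. The median positions of the first set were 72.4% and 69.4% in IRF8KO, against 29.7% and 29.1% in WT. The median positions of the second set were 35.7% and 33.8% in IRF8KO, against 76.1% and 73.1% in WT.

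Lost regions were mostly shared with the next dendritic stage, whereas gained regions were mostly found in no other wild-type library. Both WT CDP libraries listed 81.9% of the lost regions (95% Wilson interval 81.1 to 82.6%), 7.59% of the gained regions (6.72 to 8.58%) and 88.6% of the regions found in all 4 MDP libraries. Both WT LMPP libraries listed 34.6% of the lost, 15.1% of the gained and 80.8% of the all-library regions, and both WT LT-HSC libraries 8.56%, 5.09% and 54.8%. Of the gained regions, 64.5% (62.8 to 66.2%) were listed in none of the 6 other libraries, against 3.88% of the lost regions. The intervals cover counting error over regions only, and the CDP libraries were the deepest, at 10166833 and 7985428 tags. That lost regions are open in WT MDP and its neighbours is partly set by the rule, which asked for peaks in both WT MDP libraries. The rule also asked that gained regions have no peak in either WT MDP library. Their low shares in the other WT libraries are therefore partly set by the rule too. Of all regions in both WT MDP libraries, 85.9% were listed in both CDP libraries, and of all regions in both IRF8KO libraries 79.1% were.

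By their course through the WT stages, 4792 lost regions (45.0%) had no peak in either LMPP library and a peak in both CDP libraries, and 2884 (27.1%) had peaks in both LMPP and both CDP libraries. Among gained regions 2099 (67.3%) were in neither LMPP nor CDP libraries, and 325 (10.4%) were in both LMPP libraries and neither CDP library. When regions were divided by row position into steps of 10% of the list, 8 steps of the IRF8KO lists held 34 or more gained regions. Both CDP libraries listed 1.39% to 10.9% of the gained regions in those steps, and 67.9% to 92.3% of the regions found in all 4 MDP libraries. In the 10 steps of the WT lists they listed 53.4% to 100% of the lost regions and 37.0% to 100% of the regions found in all 4. In the top 50% of the IRF8KO lists, both CDP libraries listed 2.85% of the gained regions and 93.0% of the regions found in all 4 MDP libraries. The rule asked for no WT MDP peak in the gained regions and for WT peaks in the others, which sets part of these gaps. In the top 50% of the WT lists, both CDP libraries listed 98.4% of the lost regions and 97.1% of the regions found in all 4. With lists of equal length, both CDP libraries listed 91.9% of lost and 17.4% of gained regions, and 50.2% of gained regions were in none of the 6 other libraries, against 64.5% with the full lists. Of the reordered regions, both CDP libraries listed 97.3% of those that stood lower in IRF8KO and 28.7% of those that stood higher. These sets were chosen by row position and so differ in their WT positions, which sets part of the contrast. Among all regions found in all 4 MDP libraries, both CDP libraries listed 98.3% at 20 to 30% of the WT lists. At 70 to 80% of the WT lists that share was 58.7%.

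**Figure D3:**
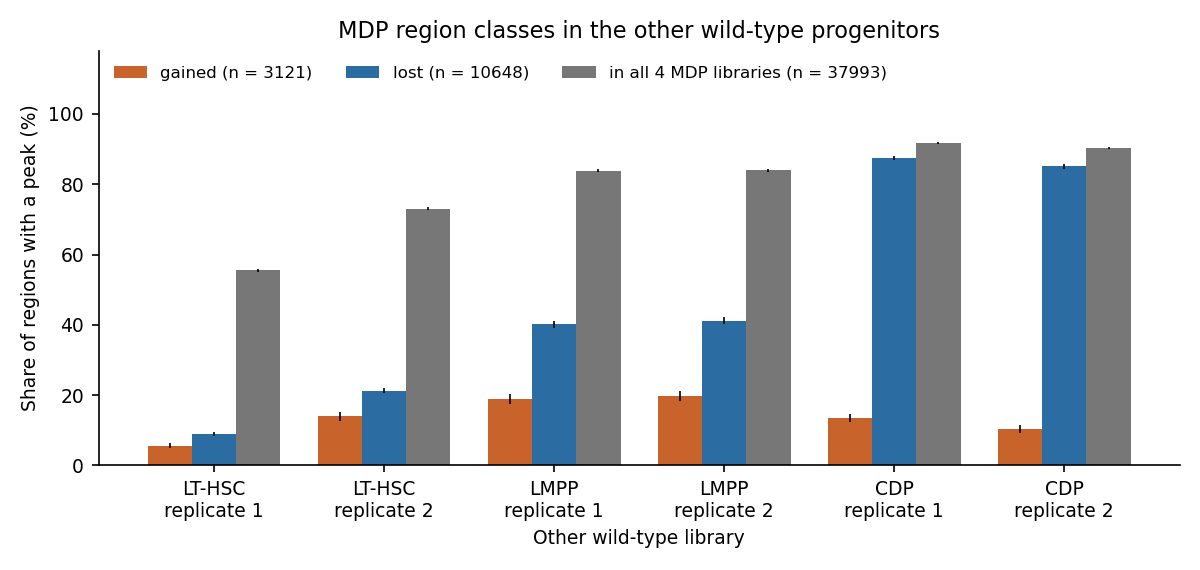
Share (%) of gained, lost and all-library MDP regions with a peak in each of the 6 other wild-type libraries, with 95% Wilson intervals. Lost regions are listed at 85.1% and 87.5% in the CDP libraries and at 40.2% and 41.2% in the LMPP libraries, while gained regions stay between 5.58% and 19.7% throughout.

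Changed regions lay mainly away from gene starts. Within 1 kb of an annotated start lay 3.37% of the lost regions (3.04 to 3.73%) and 2.39% of the gained regions (1.90 to 2.99%), against 25.1% of the regions found in all 4 libraries and 14.1% of all merged regions. The start table held none for chromosome 18, so its regions are left out of these shares. Of the lost regions 51.4% lay inside a protein-coding gene, and of the gained regions 53.7%, against 59.5% of the regions found in all 4.

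Irf8, the targeted gene, kept a listed start in all 4 libraries. Within 100 kb, 28 regions had Irf8 as the nearest gene, of which 4 were lost (14.3%) and 2 gained (7.14%), beside 13.4% and 3.92% over all regions. Of the 28, 14 and 17 were listed in the IRF8KO libraries, against 22 and 18 in the WT libraries. The region over the Irf8 start (chr8:120735884-120737178, GRCm38) was listed in all 4, at row positions of 25.2% and 30.2% in IRF8KO, against 15.7% and 14.4% in WT. Because the allele is not named, these positions describe the locus and do not check the genotype. A region centred 56.6 kb downstream of the gene's start, at the place of a distal Irf8 enhancer known from myeloid progenitors, was also listed in all 4, at 8.33% and 7.17% in IRF8KO, against 4.81% and 4.38% in WT. A region at 32.6 kb, where an enhancer known to be used with BATF3 in dendritic cells lies, stood at 57.5% and 81.3% in IRF8KO, against 43.4% and 38.8% in WT. A region at 41.0 kb, at the place of an enhancer known from early conventional dendritic cell commitment, was lost: it stood at 51.9% and 53.6% in the WT lists, in both CDP lists, and in no LMPP list. The other lost Irf8 regions were centred 16.2 kb upstream and 47.9 and 64.3 kb downstream, and the 2 gained ones 3.39 and 62.3 kb downstream.

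The other 15 factors and receptors of the lineage that were followed had 19 of 169 regions lost (11.2%) and 7 gained (4.14%), close to the 13.4% and 3.92% over all regions. Flt3, the receptor for the cytokine that drives dendritic cell development, had no lost and 1 gained region of 15. Csf1r, which encodes the CD115 antigen used in the sort and binds the main macrophage growth factor, had no lost or gained region of 6. Nor did Id2, an inhibitor of E proteins, of 14 regions, Irf4, a close relative of Irf8, of 6, Cebpe, a granulocyte factor, of 4, or Ly6c2, a monocyte surface antigen, of 8. Spi1 (PU.1) and Cebpa (a granulocyte and monocyte factor) each had 1 lost and 1 gained region, of 8 and 10. Klf4, a monocyte factor, and Batf3, a dendritic cell factor, each had 1 lost and no gained region, of 8 and 10. Zeb2, a zinc-finger repressor active in myeloid cells, had 1 lost and 1 gained of 11, Gata2, a progenitor and mast cell factor, 2 lost and 1 gained of 8, and Gfi1, a repressor needed for neutrophils, 2 lost of 7.

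Kit and Tcf4 had the largest numbers of lost regions among these lineage genes. As shares, 29.4% of Kit regions and 13.5% of Tcf4 regions were lost, and the Tcf4 share was close to the 13.4% over all regions. Gfi1 (28.6%) and Gata2 (25.0%) had higher shares than Tcf4. Kit, the stem cell factor receptor (CD117, also used in the sort), had 6 and 7 regions in IRF8KO, against 12 and 13 in WT, and 5 of its 17 regions were lost and 1 gained. Tcf4, the E protein of plasmacytoid dendritic cells, had 20 and 23 regions in IRF8KO, against 26 and 27 in WT, with 5 lost and 1 gained of 37. Both IRF8KO counts lay below both WT counts in 24.9% of the 16198 protein-coding genes with a region and above them in 4.74%, so Kit and Tcf4 share their order with many genes.

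Over the 16198 protein-coding genes with a region, 4951 had more lost than gained regions (30.6%) and 1229 more gained than lost (7.59%). Genes with many regions can lose many, so counts are given beside the total for the gene. Itgb8, an integrin subunit that activates transforming growth factor beta, had 12 of 22 regions lost, with 7 and 6 listed in IRF8KO, against 19 and 20 in WT. The adaptor gene Ank2 had 12 of 29 lost, with 14 and 12 in IRF8KO, against 26 and 25 in WT. St6galnac3, a sialyltransferase, had 10 of 33 lost, with 10 and 13 in IRF8KO, against 27 and 30 in WT. These genes were named for their number of lost regions, so lower IRF8KO counts are largely set by the choice. Hdac9, a class II histone deacetylase, had 11 of 34 lost. Slc9a9 (an endosomal sodium-proton exchanger), Pde4d (a cyclic AMP phosphodiesterase) and Foxp1 (a forkhead repressor) each had 12 lost, of 40, 62 and 67 regions. Ptprm (a receptor tyrosine phosphatase), Plcb4 (a phospholipase C) and Lpp (a focal adhesion protein) each had 10 lost, of 32, 41 and 44.

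Some loci were nearly emptied. Of 3344 genes with at least 5 regions in both WT libraries, 155 lost more than 50% of them and 750 lost none. Macc1, a gene known from tumour cell invasion, had 0 and 0 regions in IRF8KO, against 9 and 7 in WT. P2ry10, a receptor for lysophospholipids, had 0 and 0, against 6 and 5. Msr1, the macrophage scavenger receptor, had 1 and 1, against 7 and 8. Adam19, with lost regions at annotated starts, had 1 and 0, against 8 and 6. These loci too were chosen by their share of lost regions, which largely sets the lower IRF8KO counts. Other such loci were Dip2c and Slc1a2 (a glutamate transporter), which each lost 7 of 8 WT regions, Asic2 (a proton-gated channel) and Pir (pirin), which each lost 5 of 6, Naa11 (an acetyltransferase), which lost 8 of 10, and Abhd12 (a lysophosphatidylserine lipase), which lost 4 of 5.

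Few loci had gained most of their regions. Ednra had 10 and 9 regions in IRF8KO, against 0 and 2 in WT, and 7 of its 10 regions were gained. Rhoj, a small GTPase of endothelial cells, had 11 and 9 in IRF8KO, against 4 and 4 in WT, with 5 of 11 gained. Fbxo16, an F-box protein, had 6 and 7 in IRF8KO, against 1 and 2 in WT, with 4 of 7 gained. None of these 3 genes lost a region, and their higher IRF8KO counts are largely set by how they were chosen. Foxn3 (a forkhead repressor) had 8 gained and 5 lost of 43, and Arhgap26 (a GTPase-activating protein) 8 gained and 7 lost of 46. Tshz2 and Sox5, both transcription factors, each had 6 gained, with 3 and 5 lost. Clec16a (an autophagy regulator), Dgkh (a diacylglycerol kinase) and Rad51b (a recombination factor) each had 5 gained, with 2, 2 and 4 lost. Pparg, with a gained region at an annotated start inside the gene, changed in both directions: of 16 regions 7 were lost and 3 gained. Of 2520 genes with at least 5 regions in both IRF8KO libraries, 7 had gained more than 50% of them.

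**Figure D4:**
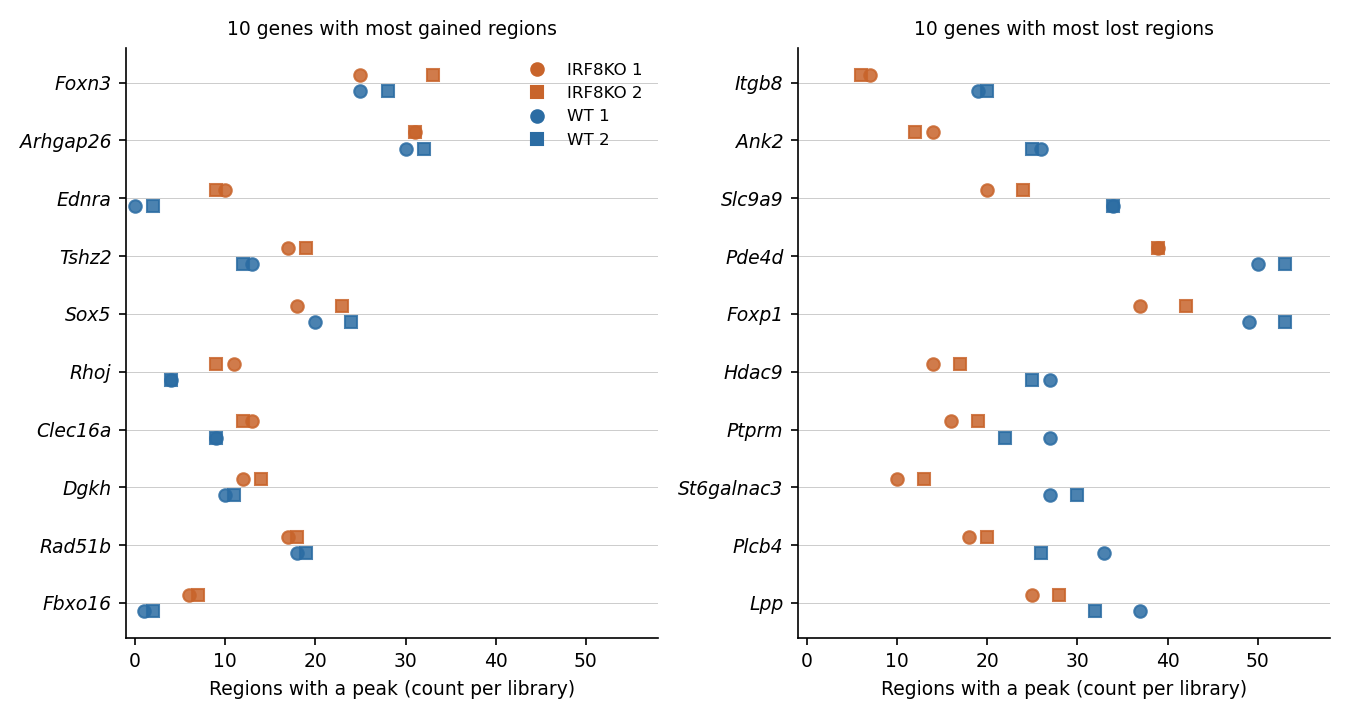
Number of regions with a peak (x axis) in each library for the 10 genes with most gained regions (left) and the 10 with most lost regions (right), IRF8KO in orange above WT in blue. The direction is largely set by how the genes were chosen, and the plot shows the counts behind it, such as 10 and 9 regions of Ednra in IRF8KO, against 0 and 2 in WT.

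The lost regions highest in the WT lists lay 19.99 kb or more from an annotated gene start. The first, at chr2:98662028-98663081 (GRCm38), had no gene within 100 kb and stood at 0.175% and 0.333% in the WT lists, and it lies in a stretch known in this build for reads piling up from repeats. The next was nearest to Taok3, a stress kinase, at 2.26% and 1.98% in WT. It was followed by regions nearest to Adgrg6 (an adhesion receptor), Sorcs3 (a sorting receptor), Plekhm3, Zfp536, Cenpe (a kinetochore motor), Cyp7b1 (an oxysterol hydroxylase) and Rasgrf1 (a Ras exchange factor), with mean positions of 3.61% to 6.57%, and by a region on chromosome 15 with no gene within 100 kb at 5.60%. All 10 were listed in both CDP libraries. The gained regions highest in the IRF8KO lists stood lower, at mean positions of 15.9% to 25.7%, and none of those 10 was listed in a CDP library. The first was nearest to Tmem170b, at 16.1% and 15.8% in IRF8KO, and was listed in both LT-HSC and both LMPP libraries. The others were nearest to Itpr1 (a calcium release channel), Gm50595, Septin5 (a cytoskeletal GTPase), Jazf1 (a chromatin cofactor), Lmo1 (a LIM-only factor), Tmtc1, 4933402J07Rik and Farp1 (a guanine nucleotide exchange factor), and 1 had no gene within 100 kb. Those at Tmem170b and Septin5 were in both LT-HSC and both LMPP libraries, that at Itpr1 in 1 of each, and the other 7 in none of the 6 libraries.

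Gene lists were compared with the regions of all genes, of which 12.9% were lost and 3.84% gained among 74310 regions. The median gene with a region had 0% of its regions lost and 0% gained. Of 20 lists, 10 had a higher share lost than all genes and 10 a higher share gained. The lists hold 431 matched entries, and their regions are neighbours on the same genes, so the intervals given with the plot of lists cover counting error only.

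Shares of lost regions in the 4 lists of dendritic cell, antigen presentation and pattern recognition genes ran from 16.8% to 19.5%, beside 12.9% over all genes. The 95% Wilson intervals of the plasmacytoid (12.1 to 22.9%), class II (12.4 to 29.4%) and pattern recognition lists (12.8 to 26.2%) included the share of all genes. That of the conventional dendritic cell list (12.96 to 23.7%) began just above that share. The intervals of the stem cell (13.02 to 22.6%) and neuronal lists (16.5 to 31.4%) also lay above it. The stem cell (17.3%) and T and NK cell lists (16.7%) had shares close to those of these 4 lists. Shares of this size were therefore not particular to dendritic cell and antigen presentation genes. The conventional dendritic cell list had 34 of 192 regions lost (17.7%) and 5 gained (2.60%), with a median of 16.7% lost per gene. Of its 26 members, 18 lost more than they gained, beside 4951 of all 16198 genes with a region (30.6%). A gene with more regions has more chances of a net loss, and the part of region number in such counts was not tested. Bcl6, a repressor used in conventional dendritic cells, had 4 of 12 regions lost, Btla, an inhibitory receptor, 3 of 9, and Cadm1, an adhesion molecule of cross-presenting dendritic cells, 2 lost and 2 gained of 14. The plasmacytoid list had 31 of 184 lost (16.8%) and 9 gained (4.89%), with a median of 13.01% lost per gene. Of its 22 members, 13 lost more than they gained, beside the same 30.6% over all genes. Bcl11a, a factor of plasmacytoid and B lineage cells, had 16 and 17 regions in IRF8KO, against 27 and 22 in WT, with 6 lost and 2 gained. Runx2, also in the myeloid factor list, had 3 lost and 3 gained of 31.

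The list of major histocompatibility complex class II and antigen presentation genes had 16 of 82 regions lost (19.5%) and 1 gained (1.22%), with a median of 0% lost per gene. Ciita, the master activator of class II genes, had 0 and 2 regions in IRF8KO, against 4 and 6 in WT, with 3 of 6 lost. Cd40, a co-stimulatory receptor, had 1 and 0 in IRF8KO, against 3 and 3 in WT, and Cd1d1, which presents lipids, had 2 lost and 1 gained of 11. The pattern recognition list had 24 of 129 regions lost (18.6%) and 5 gained (3.88%), with a median of 12.5% lost per gene. Ly96, the co-receptor of the endotoxin receptor, had 3 and 3 regions in IRF8KO, against 9 and 8 in WT, with 5 of 9 lost. Tlr2 had 4 lost and 1 gained of 11, and Tlr4, the endotoxin receptor, 3 lost and 1 gained of 9.

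Lists of other lineages did not stand as a block on either side. The monocyte and macrophage list had 29 of 204 lost (14.2%) and 4 gained (1.96%). Of its 30 members, 17 lost more than they gained, beside 30.6% of all genes with a region. Fcgr3, an antibody receptor, had 2 lost and 1 gained of 12. The neutrophil and granule list had 9 of 82 lost (10.98%) and 3 gained (3.66%). As many lost as gained regions were found in 15 of its 22 members, beside 10018 of all 16198 genes. Ltf (lactoferrin) had 2 and 2 regions in IRF8KO, against 5 and 5 in WT, and Csf3r, the granulocyte colony-stimulating factor receptor, had 2 lost and 1 gained of 7. The stem cell list had 41 of 237 lost (17.3%) and 11 gained (4.64%), in which Mllt3, a stem cell maintenance factor, had 6 lost of 14 and Erg, an ETS factor, 3 lost and 4 gained of 36. The mast cell and basophil list had 13 of 83 lost (15.7%) and 5 gained (6.02%), with Cd200r3 at 6 lost of 16 and Mitf, a mast cell factor, at 1 lost and 1 gained of 26.

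The lists with the lowest shares lost were lysosome and autophagy (11 of 153, 7.19%), interferon response (7 of 87, 8.05%), interferon regulatory factors and IRF8 partners (16 of 183, 8.74%) and housekeeping (6 of 66, 9.09%). The Wilson intervals of the interferon response (3.95 to 15.7%), partner (5.45 to 13.7%) and housekeeping lists (4.23 to 18.4%) included the 12.9% over all genes. Only that of the lysosome and autophagy list (4.06 to 12.4%) lay below it. In the partner list, Etv6, an ETS repressor that binds with IRF8, had 29 and 29 regions in IRF8KO, against 37 and 37 in WT, with 4 of 45 lost, and Irf2 had 2 of 27 lost. Ctsc, a lysosomal protease gene, had 2 lost and 1 gained of 21, while the autophagy genes Atg5 and Atg7 had 0 and 1 lost and 2 and 1 gained. Ifi44, an interferon-induced gene, had 0 and 1 regions in IRF8KO, against 3 and 4 in WT, Cxcl9, an interferon-gamma-induced chemokine, had 1 gained of 2, and Ddx58, the RNA sensor RIG-I, 1 gained of 7. Eif4a2, a translation factor, had 1 lost and 2 gained of 4, and Ywhaz, an adaptor protein, had 2 lost and 1 gained of 19.

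The highest share lost was in the neuronal list, at 28 of 121 regions (23.1%) with 3 gained (2.48%), a list with no role in these cells. Dlg2, a long synaptic gene, had 6 lost of 28, and Map2, a microtubule protein, 2 and 2 regions in IRF8KO, against 7 and 7 in WT. High shares thus also occurred in a list that is not immune. The cell cycle list had 17 of 161 lost (10.6%), with Ccnd1 (cyclin D1) at 5 of 18, Cdk6 at 4 lost and 2 gained of 35, and Ccne1 at 2 of 11. The cytokine receptor list had 28 of 232 lost (12.1%), with Tgfbr2 at 5 of 25, and the list of C/EBP, KLF and other myeloid factors 38 of 376 (10.1%), with Runx1 at 5 lost and 2 gained of 33 and Tfec at 4 lost and 1 gained of 17. The erythroid, megakaryocyte, B cell and T and NK cell lists had 8 of 64, 8 of 68, 10 of 65 (15.4%) and 14 of 84 (16.7%) lost. Their members with most changes included Ank1, Car1 and Epor; Vwf, Gp6 and Itga2b; Bank1, Il7r and Ebf1; and Cd28, Gata3 and Bcl11b, each with 0 to 3 lost and 0 to 2 gained regions. Of these, Ebf1, the early B cell factor, had 8 and 10 regions in IRF8KO, against 5 and 5 in WT, with 2 gained and none lost.

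With lists of equal length, 17.8% of the class II list's regions, 15.5% of the neuronal, 14.0% of the B cell, 14.0% of the conventional dendritic cell, 13.7% of the pattern recognition and 13.3% of the T and NK cell list's regions were lost, beside 9.24% over all genes. The plasmacytoid list had 18 regions lost (11.5%) and 14 gained (8.97%) at equal length, where the full lists gave 31 and 9. The mast cell and basophil list then had 16.9% lost and 18.3% gained, against 7.28% gained over all genes.

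**Figure D5:**
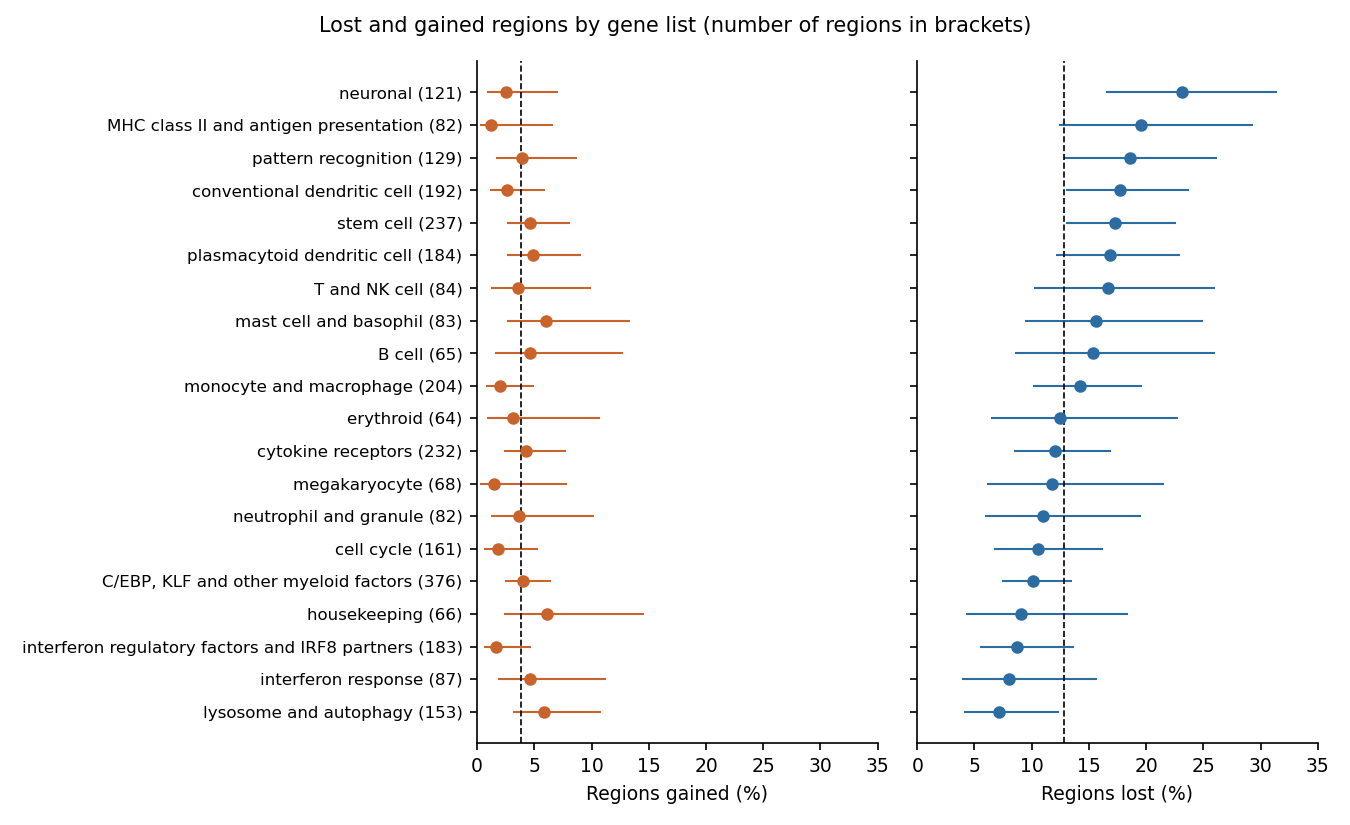
Share of regions gained (left) and lost (right), in %, for 20 gene lists, with 95% Wilson intervals and the number of regions in brackets; the dashed line marks all genes (3.84% gained, 12.9% lost). The neuronal list stands highest for loss at 23.1%, and the lysosome and autophagy list lowest at 7.19%.

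The promoters under lost regions held the letters of the ETS-IRF composite in a larger share than promoters under stable regions did, a description with no test. Of 21044 RefSeq promoters, 245 starts of 225 genes lay under a lost region, 34 starts of 30 genes under a gained region and 11167 under a region of all 4 libraries. The composite was found in 20 of the 245 (8.16%, Wilson interval 5.35 to 12.3%), in 0 of the 34 gained, which 3 counts would put at up to 8.82%, in 2.19% of promoters under regions of all 4, and in 2.55% of all promoters. The median GC content was 60.7% in the lost set and 62.0% in the all-library set. Of the 20 starts, 17 lay in regions listed in both CDP libraries, beside 158 of all 245 starts under lost regions and 81.9% of all lost regions. With other settings for the merging, the list length and the libraries used, the share of lost promoters with the composite was 3.77 to 8.16%. It was lowest with the top 50% of each list. The main share stood on 20 starts of 18 genes, and the starts of Gm38418 share a site, as do those of Sp100. A match is a description of letters, not a bound site.

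The windows show the composite, in capitals and read in its own direction, with 10 bases on either side in the 6 genes whose lost region stood highest, chosen after their values were seen. They include Klrk1, which encodes the activating receptor NKG2D, Cd209a, a dendritic cell lectin, Plin1, a lipid droplet protein, the olfactory receptor gene Olfr420, and Cybb, the NADPH oxidase subunit whose promoter is a textbook target of PU.1 with IRF8.
Pdcd1: tgtctgtagcGGAAAGGAAActgtcccagg
Klrk1: gaaaaaaattGGAACTGAAAgtgaagatgt
Cd209a: atcttacttaGGAAGAGAAAttgagaagtg
Plin1: agggcaaagaGGAAGAGAAAgctgggccgg
Olfr420: tggatgtagaGGAAGAGAAAtaaataatga
Cybb: cttctgatgaGGAAATGAAAacagcagctt

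The other motifs differed less or rested on few promoters. The IRF pair, which shares its GAAA with the composite and can overlap it, was in 6.53% of lost promoters (4.06 to 10.3%), in 0 of the 34 gained and in 3.38% of all. PU.1 letters, whose GGAA can also lie within the composite, were in 5.31% of lost, 5.88% of gained and 3.15% of all promoters. C/EBP letters were in 5.71% of lost promoters and in 7 of the 34 gained (20.6%, 10.3 to 36.8%), against 10.3% of all. GATA letters were in 6.53% of lost and 20.6% of gained promoters, against 9.68% of all, and AP-1 letters in 5.71% and 11.8%, against 7.04%. RUNX letters were in 15.5% of lost and 17.6% of gained promoters, against 14.8% of all. The gained promoters had a lower GC content (median 56.2%) than those under regions of all 4, and one close to that of all promoters (56.7%). The part of base composition in these shares was not tested. Distal regions, which made up most changes, were not searched.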

How the data were processed

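Each library was deposited as its own peak list, with chromosome, start and end, and a score column that was 1 in every row. The submitters' processing notes name Bowtie 1.1.2, HOMER 4.9, mm10 and GRCm38. Peak calling used HOMER without a control for every library separately, per the file headers, with peaks of 500 bp set 1000 bp apart, stitched into wider regions. The headers also give a false discovery rate of 0.001, 4-fold enrichment over the surrounding 10 kb and at most 1 tag per bp. No source used here states whether reads were shifted for the transposase. Without tags per peak, detection was compared and no count test was run. Total tags and tags within peaks came from the file headers. Because a weak region can fall below the caller's limit, absence from a list is not proof of closed chromatin.

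The 4 MDP lists were merged at 1 bp overlap on chromosomes 1 to 19 and X (Python 3.11.15, pandas 2.3.3, numpy 2.4.6, scipy 1.17.1). Regions were assigned to the nearest RefSeq protein-coding gene (GRCm38.p6) within 100 kb of their centre. Gene starts came from the RefSeq promoter table, which covered 17273 of 21627 protein-coding genes and none on chromosome 18. Classification was tested on simulated lists. Intervals are Wilson at 95%. Group values of libraries were compared by two-sided exact permutation.

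The members and gene lists were chosen with earlier results of these data known. Named genes were the 10 with most lost and the 10 with most gained regions, the genes nearest to the 10 lost and 10 gained regions highest in the lists, the 3 members of each list with most changes, 16 fixed genes of the lineage, and the gene starts whose promoters are printed. Nearly emptied loci, Pparg and the genes of the composite windows were chosen after their values were seen. Some genes that the rule names are not reported here. Of 433 list entries, 431 were matched to a gene. Alternatives were equal list length, the top 50% of each list, a peak covering 50% of the region, merging within 500 bp, merging all 10 lists, leaving out regions over 5000 bp or each library, a start window of 2500 bp, and genes within 20 kb. Whether the replicate numbers pair the libraries is not stated.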

Additional observations from a re-analysis of the deposited data

How the results depend on the processing

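With every list cut to equal length, lost regions numbered 6702 and gained regions 5074. The share of lost regions at gene starts was then 2.88%, and both CDP and both LMPP libraries listed 91.9% and 37.2% of lost and 17.4% and 22.9% of gained regions. With the top 50% of each list, 5690 regions were lost and 1733 gained, 6.18% of lost regions lay at gene starts, and the CDP and LMPP shares were 98.0% and 65.1% for lost and 34.0% and 36.1% for gained regions. Both settings shorten the lists, so regions low in one list drop out and change class. When a peak had to cover 50% of the region, 4.76% of lost and 3.06% of gained regions lay at gene starts, and the CDP and LMPP shares were 83.7% and 39.9% for lost and 12.3% and 19.02% for gained regions. A start window of 2500 bp gave 6.72% of lost and 6.26% of gained regions, and counting either gene end within 1000 bp, an alternative chosen after seeing the data, gave 6.20% and 5.25%. Leaving out each library in turn gave 12729 to 16411 lost and 4340 to 6915 gained regions, since a lone library then decides for its group. Over the same settings 3.68% to 4.22% of lost regions lay at gene starts. Both CDP libraries listed 68.2% to 80.7% of lost and 8.23% to 17.0% of gained regions, and both LMPP libraries 31.6% to 39.7% of lost and 16.1% to 22.6% of gained regions. In every setting named here the lost regions outnumbered the gained ones and had the higher CDP and LMPP shares. Merging within 500 bp, merging over all 10 lists and leaving out regions over 5000 bp moved none of these values beyond the main interval or a factor of 1.5. With the replicate number as a replicate block, the paired difference of IRF8KO minus WT stayed at -10820 peaks and -8.67 points of tags within peaks, with an exact sign-flip p of 0.5, the smallest that 2 pairs allow. Of 440 counts of lost or gained regions by gene list, 314 stayed within 1.5 times under the alternatives and 126 moved, and no list was tested. Of the regions in the bottom 10% of the WT lists 51.8% were lost, and of those in the top 10% 0.453%. The libraries differed in depth, and its part in the calls was not tested.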

Other observations

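The 245 gene starts under lost regions fell into sets with different histories. For 44 starts the region was listed in both CDP libraries and in no LMPP or LT-HSC library, with those highest in the WT lists at Olfr640, Klrk1, Ccl12, Fam47e, Gm6377, Clec4b1, Rab43 and Ly86. For 49 starts the region was listed in all 6 other wild-type libraries, and the highest of these were Pdcd1, Frzb, Chrm3, Bhlhe41, Wdr17, Trim2 and Dll1 (with 2 starts). Both sets mix immune genes, such as Ccl12 (a monocyte-attracting chemokine) and Pdcd1, with genes better known from other tissues, such as Neurog3 (a developmental transcription factor) in the first and Chrm3 (a neurotransmitter receptor) in the second. For 4 starts the region was in none of the 6. Of all lost regions, 43.7% had the history of the first set, 5.12% that of the second, and 3.88% were in none of the 6.

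Of the 34 starts under gained regions, 2 were listed in both CDP libraries, beside 7.59% of all gained regions. In both LMPP libraries 11 were listed, beside 15.1% of all gained regions. In none of the 6 were 9, beside 64.5%, and in all 6 were 0, beside 0.609%. The highest in the IRF8KO lists, after the 4 whose promoters were shown, were those of Cfd (complement factor D), Dscam (a cell adhesion molecule), 2310061N02Rik, Slc24a2 (a sodium, potassium and calcium exchanger), Ptk7 (a catalytically inactive receptor kinase) and S100a9 (a neutrophil and monocyte calcium-binding protein). The Cfd region stood at a mean row position of 46.7% in the IRF8KO lists and the S100a9 region at 62.2%. The genes named in this section were chosen after their values were seen.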
